A study of Mus musculus with 12 samples.

Results

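10 genes that mark the primitive streak and the mesoderm and endoderm that leave it were followed in paused mouse embryonic stem cells: the signals Wnt3, Wnt8a, Fgf8 and Fgf17, the receptor Kdr, and the transcription factors T, Eomes, Mixl1, Evx1 and Snai1. They were chosen by name as 10 of the 24421 genes of the deposited count table, and all 10 were found. The cells were E14, an established mouse embryonic stem cell line, expressing dCas_Alkbh5, whose name joins a catalytically dead Cas protein with the RNA m6A demethylase Alkbh5. The genotype label of every library is WT(dCas_Alkbh5), and the labels do not say whether the line is 1 clone. Every group was grown on gelatin in serum and LIF, transfected with 1 µg of a guide plasmid, selected for 3 days in blasticidin at 8 µg/mL and then held for 5 days in 200 nM INK128. INK128 inhibits the growth kinase mTOR, which slows these cells into a dormant but still pluripotent state, and no unpaused cells are among these samples. The groups differed in the guide alone, per the labels: 4 libraries had a non-targeting guide (NT), 4 had Mycn-gRNA2 and 4 had Mycn-gRNA3. The 2 Mycn guides are directed at Mycn, a MYC-family growth regulator.

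The primitive streak is the site at which cells of the early embryo leave the epiblast, lose their epithelial contacts and become mesoderm or definitive endoderm. WNT3 starts it, NODAL and FGF signals sustain it, and T, EOMES and MIXL1 are transcription factors of its cells. SNAI1 represses the adhesion gene Cdh1 as cells leave, and KDR, a receptor for VEGF, marks early mesoderm that gives rise to blood and endothelium. In cultured embryonic stem cells these genes are usually read as signs of exit from pluripotency toward mesendoderm.

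Promoter sequence was at hand for 6 of the 10 genes (RefSeq, build GRCm38.p6). The 250 bases before the start are printed for 5: Wnt3, Kdr and Snai1, which rose with both guides, and T and Eomes, which moved with the replicate number. Each reads 5′ to 3′ along the gene, with capitals marking matches, on either strand, to 4 short motifs: the MYC E-box CACGTG, the SNAIL E-box CACCTG, the T-box site AGGTGT, and the TCF/LEF site written as CTTTGAA or CTTTGAT or CTTTGTA or CTTTGTT.
Wnt3 (chr11:103773925-103774174, plus strand): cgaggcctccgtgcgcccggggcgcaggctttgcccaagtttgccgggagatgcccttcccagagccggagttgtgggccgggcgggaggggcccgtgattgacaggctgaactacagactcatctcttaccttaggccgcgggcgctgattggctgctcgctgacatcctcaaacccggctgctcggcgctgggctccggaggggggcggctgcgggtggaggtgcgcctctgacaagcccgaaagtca
Kdr (chr5:75978456-75978705, minus strand): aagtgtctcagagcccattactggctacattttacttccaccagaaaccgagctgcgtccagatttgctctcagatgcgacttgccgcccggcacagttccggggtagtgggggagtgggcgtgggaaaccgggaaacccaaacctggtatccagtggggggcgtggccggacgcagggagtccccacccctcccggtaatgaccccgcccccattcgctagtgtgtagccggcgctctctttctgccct
Snai1 (chr2:167537945-167538194, plus strand): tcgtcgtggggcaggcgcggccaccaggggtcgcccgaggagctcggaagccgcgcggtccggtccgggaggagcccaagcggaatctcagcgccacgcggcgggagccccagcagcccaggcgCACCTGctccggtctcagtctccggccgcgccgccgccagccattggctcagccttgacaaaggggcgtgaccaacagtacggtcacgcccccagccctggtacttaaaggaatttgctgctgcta
T (chr17:8434173-8434422, plus strand): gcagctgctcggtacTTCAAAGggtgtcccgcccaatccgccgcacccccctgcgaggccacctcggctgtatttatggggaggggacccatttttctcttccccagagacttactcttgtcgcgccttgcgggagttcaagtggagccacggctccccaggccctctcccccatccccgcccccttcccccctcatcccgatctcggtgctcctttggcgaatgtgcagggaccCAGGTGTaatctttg
Eomes (chr9:118477939-118478188, plus strand): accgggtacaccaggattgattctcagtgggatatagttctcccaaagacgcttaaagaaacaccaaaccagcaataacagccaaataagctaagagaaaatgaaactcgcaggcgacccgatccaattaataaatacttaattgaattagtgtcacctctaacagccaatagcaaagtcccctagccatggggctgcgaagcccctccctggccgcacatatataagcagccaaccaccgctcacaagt
None of the 6 promoters held the letters CACGTG, which 6.04% of the 32536 RefSeq promoter windows of that length hold. The T window held CAGGTG, the SNAIL E-box on the minus strand, 15 bases before the start, overlapping AGGTGT, and a TCF/LEF match, TTCAAAG, 235 bases before it. Snai1 held CACCTG 126 bases before its own start. Evx1 held the same letters 37 bases before the start, overlapping a T-box site, while Wnt3, Kdr and Eomes held none of the 4. The background shares were 17.3% for the SNAIL E-box, 11.9% for the T-box site and 14.9% for TCF/LEF, so such matches are common and are given as a description only.

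Libraries held 17248564 to 33819855 reads on endogenous genes, and synthetic ERCC RNAs, added in a fixed amount to each RNA, took 1.04% to 1.61% of reads. Mycn itself was at 136 to 146 CPM (counts scaled to the size of the library) with NT, 205 to 262 with Mycn-gRNA2 and 258 to 292 with Mycn-gRNA3. Pluripotency markers were abundant in all groups (Pou5f1 986 ± 109, 802 ± 189 and 961 ± 24.5 CPM in the NT, Mycn-gRNA2 and Mycn-gRNA3 groups, SD, n = 4 each). One feature set the NT libraries apart before any gene of the streak was considered. The summed level of 4 Y-linked genes (Kdm5d, Eif2s3y, Ddx3y and Uty) was 0.0449 to 0.181 CPM in NT, against 32.4 to 83.8 CPM in the Mycn-gRNA2 and 46.1 to 63.6 CPM in the Mycn-gRNA3 libraries. This difference falls between the same libraries as the Mycn guides do, so the effect of a guide and of whatever else separates the NT cells from the guide cells cannot be told apart in any comparison with NT. Whether the replicates were separate cultures is not in the labels, and the p-values reflect only the spread among these libraries, which may be technical.

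Most of these genes were expressed at very low levels. Per length of exon, Fgf17 stood first in NT with 38.6 ± 1.11 RPKM (reads scaled to exon length and library size; SD, n = 4), Eomes followed with 1.9 ± 0.88 RPKM and Snai1 with 0.958 ± 0.222 RPKM. Evx1 (0.369 ± 0.206 RPKM), T (0.368 ± 0.0872 RPKM) and Mixl1 (0.305 ± 0.0948 RPKM) lay within each other's spread. The lowest in NT were Kdr (0.0887 ± 0.0223 RPKM), Wnt8a (0.0871 ± 0.0736 RPKM), Fgf8 (0.0734 ± 0.0302 RPKM) and Wnt3 (0.0622 ± 0.0228 RPKM), which also overlapped. With the guides the order changed: Kdr reached 0.656 ± 0.196 RPKM with Mycn-gRNA2 and 0.747 ± 0.127 RPKM with Mycn-gRNA3. Snai1 reached 2.77 ± 0.73 and 2.69 ± 0.302 RPKM, with means above those of Eomes, 1.81 ± 0.623 and 1.61 ± 0.407 RPKM. Because many counts were low, reads are given with each result.

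**Figure D1:**
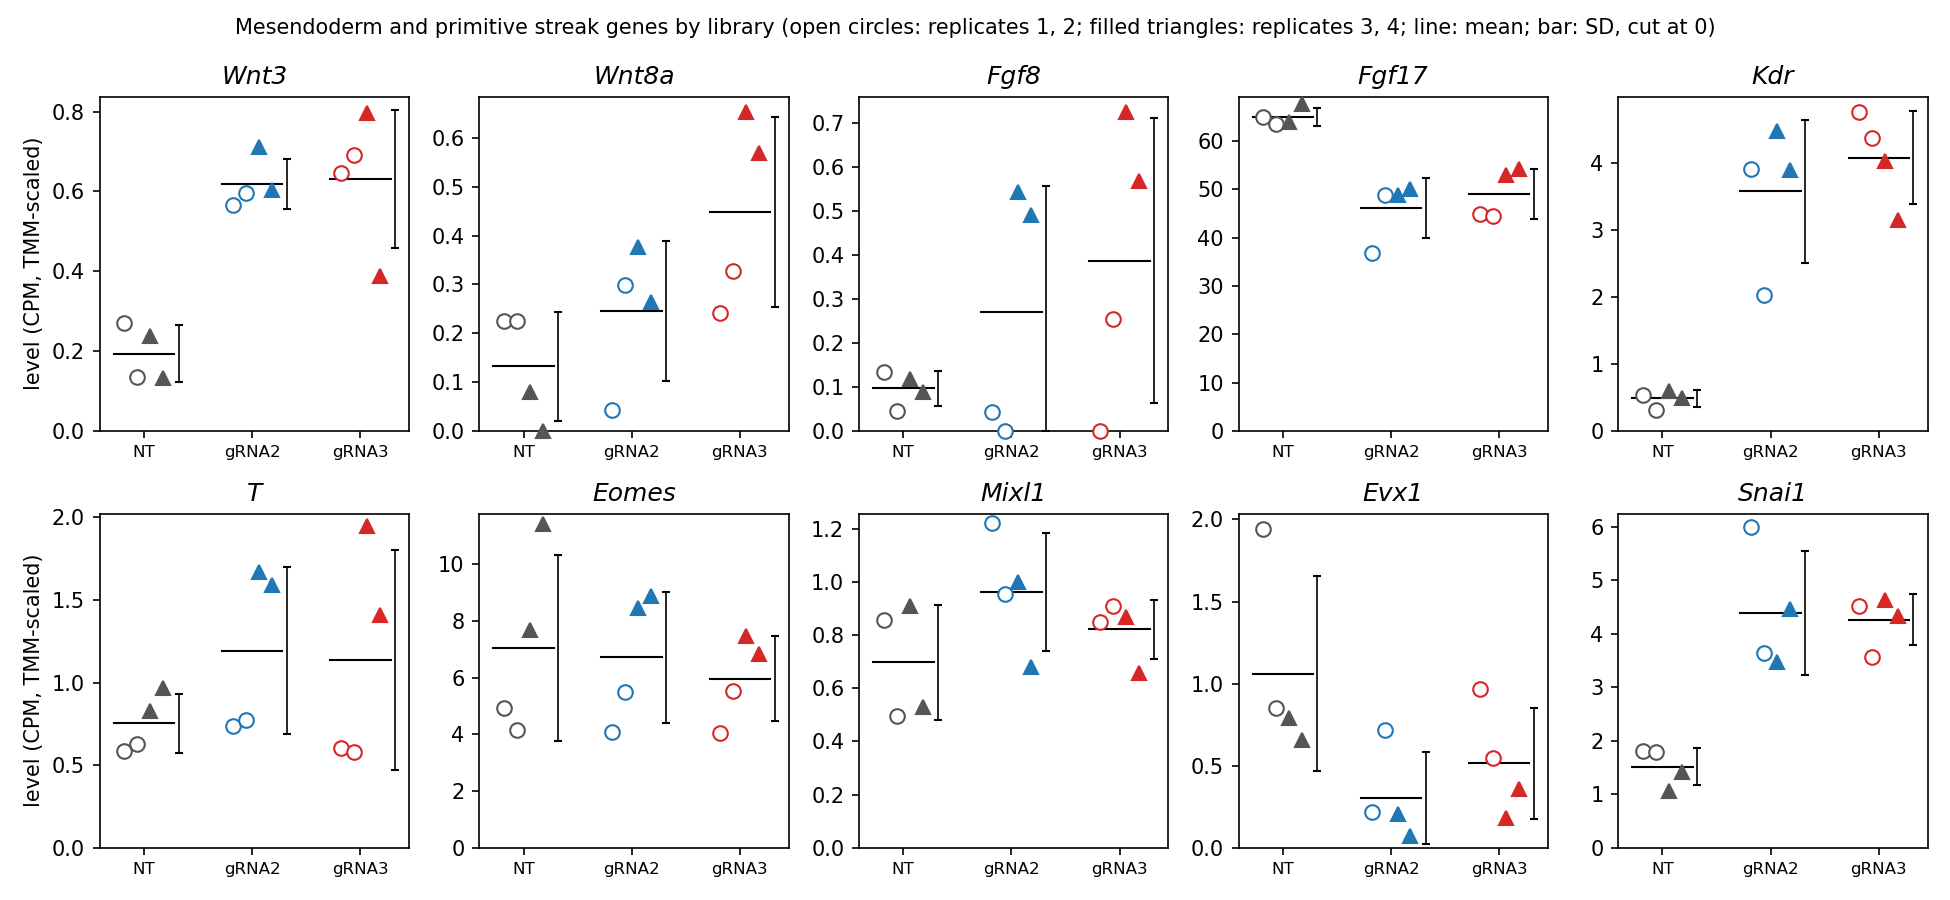
Level of each gene in every library as CPM scaled by TMM (vertical axis, linear and different for each gene), by group (horizontal axis), each point being a library (open circles for replicates 1 and 2, filled triangles for 3 and 4), the line the mean and the bar the SD, cut at 0. Kdr, Snai1 and Wnt3 lie above all NT libraries in all 8 libraries with a Mycn guide, Fgf17 lies below them, and in T and Eomes replicates 3 and 4 lie above 1 and 2 in each group. The share of all genes with such a split between NT and the guides was not counted.

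Each guide was compared with NT, which asks whether the streak genes move when Mycn is targeted in paused cells. Of the 9 genes with enough reads for the test, 3 rose with each guide, and they were the same 3: Kdr, Snai1 and Wnt3. Fgf17 fell with both guides, Evx1 fell with Mycn-gRNA2, and T, Eomes, Mixl1 and Fgf8 passed with neither. Wnt8a had too few reads for the filter. Kdr, Wnt3 and Fgf8 would not have passed that filter on the NT libraries alone and were kept through guide libraries, where they were higher. The count of risers and the median below therefore rest in part on genes kept in that way. The test was edgeR's quasi-likelihood test on levels relative to the transcriptome (TMM scaling), over 14497 genes, with calls at a Benjamini-Hochberg adjusted p under 0.05. Over all genes tested, 10.1% were called higher and 7.05% lower with Mycn-gRNA2, and 14.8% higher and 12.2% lower with Mycn-gRNA3. The median log2 change of the 9 genes was 0.69 and 0.60, beside -0.00179 and 0.000284 over all genes. The 2 comparisons share the NT libraries. Where guide and NT libraries are said below not to overlap, the share of all genes with such a split was not counted. That separation is therefore a description only.

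Among the ligands, Wnt3, the WNT signal that starts the streak, was near the limit of detection in NT and rose with both guides. NT replicates 1 to 4 held 6, 3, 6 and 3 Wnt3 reads, the Mycn-gRNA2 libraries 13, 10, 17 and 16, and the Mycn-gRNA3 libraries 16, 19, 22 and 13. All 8 guide libraries lay above the highest NT library, which was 0.271 CPM. The mean level went from 0.194 ± 0.0711 CPM in NT to 0.619 ± 0.063 CPM in the Mycn-gRNA2 group and 0.631 ± 0.173 CPM in the Mycn-gRNA3 group (SD, n = 4 each). Wnt3 rose by 1.65 (log2) with Mycn-gRNA2 (SE 0.322, edgeR adjusted p = 0.00349) and by 1.65 with Mycn-gRNA3 (SE 0.312, edgeR adjusted p = 0.00187). Since this is RNA of a whole culture, more cells with Wnt3 RNA and more Wnt3 RNA per cell cannot be told apart, here and for the genes that follow.

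Wnt8a, a second canonical WNT ligand of the streak, stayed at a few reads per library. It had 5, 5, 2 and 0 reads in NT, 1, 5, 9 and 7 with Mycn-gRNA2, and 6, 9, 18 and 19 with Mycn-gRNA3. The NT library without a read allows up to 0.132 CPM, taking 3 reads as the limit that a count of 0 allows. The Mycn-gRNA3 libraries, from 0.242 to 0.652 CPM, did not overlap those of NT, which ended at 0.226 CPM, whereas the Mycn-gRNA2 libraries did. In the fit without the filter on low counts, over 21095 genes, Wnt8a rose with Mycn-gRNA3 by 1.77 (log2; SE 0.566, edgeR adjusted p = 0.0378), in a comparison in which 10.1% of genes were called higher. With Mycn-gRNA2 the log2 difference was 0.88 (SE 0.663, edgeR adjusted p = 0.478), and between the guides it was 0.90 (SE 0.498, edgeR adjusted p = 0.717).

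Fgf8, the FGF ligand needed for cells to move away from the streak, was unevenly spread over the replicates. It had 3, 1, 3 and 2 reads in NT, 1, 0, 13 and 13 with Mycn-gRNA2, and 0, 7, 20 and 19 with Mycn-gRNA3. The limits for the libraries without a read are 0.179 CPM for replicate 2 of Mycn-gRNA2 and 0.121 CPM for replicate 1 of Mycn-gRNA3. Replicates 3 and 4 of the 2 guides were above every NT library, and replicates 1 and 2 were not, apart from replicate 2 of Mycn-gRNA3. The log2 difference from NT was 1.55 with Mycn-gRNA2 (SE 1.02, edgeR adjusted p = 0.332) and 1.99 with Mycn-gRNA3 (SE 0.927, edgeR adjusted p = 0.126), so neither passed. Without replicate 1 of Mycn-gRNA3 the second was 2.35 (SE 0.763, edgeR adjusted p = 0.0388).

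Fgf17, a ligand of the same FGF subfamily as Fgf8, was the one abundant gene of the set and behaved differently. Its level was 65.1, 63.5, 63.9 and 67.7 CPM in NT, 36.8, 48.9, 48.9 and 50 CPM with Mycn-gRNA2, and 44.9, 44.4, 52.9 and 54.3 CPM with Mycn-gRNA3. Every guide library was below every NT library, with replicate 1 of Mycn-gRNA2 the lowest. Fgf17 fell by 0.50 (log2) with Mycn-gRNA2 (SE 0.0986, edgeR adjusted p = 0.00385) and by 0.40 with Mycn-gRNA3 (SE 0.098, edgeR adjusted p = 0.00841). This fall is relative to the transcriptome. Per ERCC read, where the median of all genes moved up by 0.31 and 0.48 on the log2 scale, the log2 difference of Fgf17 was -0.18 with Mycn-gRNA2 (edgeR adjusted p = 0.354) and 0.07 with Mycn-gRNA3 (edgeR adjusted p = 0.682), so neither the call nor, for Mycn-gRNA3, the direction held on that scale.

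The receptor Kdr changed most of the 10 genes. NT libraries held 12, 7, 15 and 11 Kdr reads, Mycn-gRNA2 libraries 90, 34, 107 and 103, and Mycn-gRNA3 libraries 118, 120, 111 and 105. Its level was 0.483 ± 0.121 CPM in NT, 3.57 ± 1.07 CPM in the Mycn-gRNA2 group and 4.07 ± 0.691 CPM in the Mycn-gRNA3 group (SD, n = 4 each). The lowest guide library, replicate 2 of Mycn-gRNA2 at 2.03 CPM, lay above the highest NT library at 0.594 CPM. Kdr rose by 2.88 (log2) with Mycn-gRNA2 (SE 0.273, edgeR adjusted p = 2.02e-05) and by 3.05 with Mycn-gRNA3 (SE 0.269, edgeR adjusted p = 6.88e-06). Leaving out any 1 of the 8 libraries compared kept the change between 2.73 and 3.06 with Mycn-gRNA2 and between 2.9 and 3.17 with Mycn-gRNA3.

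Of the transcription factors, Snai1, the repressor of epithelial adhesion genes, rose with both guides. It had 40, 40, 27 and 32 reads in NT, 138, 61, 83 and 118 with Mycn-gRNA2, and 112, 98, 128 and 145 with Mycn-gRNA3. The highest NT library was at 1.81 CPM and the lowest guide library at 3.47 CPM, so the groups did not overlap. Snai1 rose by 1.54 (log2) with Mycn-gRNA2 (SE 0.209, edgeR adjusted p = 0.000286) and by 1.49 with Mycn-gRNA3 (SE 0.207, edgeR adjusted p = 0.000222).

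Evx1, a homeobox gene of the posterior streak, was the one transcription factor called lower. It had 43, 19, 20 and 15 reads in NT, 5, 12, 5 and 2 with Mycn-gRNA2, and 24, 15, 5 and 12 with Mycn-gRNA3. NT replicate 1 stood far above the other NT libraries, and replicate 2 of Mycn-gRNA2, at 0.715 CPM, lay above NT replicate 4, at 0.66 CPM. Evx1 fell by 1.94 (log2) with Mycn-gRNA2 (SE 0.585, edgeR adjusted p = 0.0355), and with Mycn-gRNA3 the log2 difference was -1.07 (SE 0.499, edgeR adjusted p = 0.126). The Mycn-gRNA2 call was lost when any 1 of 6 libraries was left out (NT replicates 1, 2 and 3 and Mycn-gRNA2 replicates 1, 3 and 4), with edgeR adjusted p from 0.052 to 0.118, and in the fit without the filter on low counts (edgeR adjusted p = 0.051). Without replicate 1 of Mycn-gRNA3, the difference with that guide was -1.53 (SE 0.529, edgeR adjusted p = 0.0499). An antisense gene, 5730457N03Rik, overlaps exons of Evx1. Whether reads were counted by strand is not stated in the labels, so reads of the 2 genes cannot be told apart.

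T, Eomes and Mixl1, the transcription factors of nascent mesoderm and endoderm, passed with neither guide. T (Brachyury), the defining streak factor, had 13, 14, 21 and 22 reads in NT, 17, 13, 40 and 42 with Mycn-gRNA2, and 15, 16, 54 and 47 with Mycn-gRNA3. Its log2 difference was 0.69 with Mycn-gRNA2 (SE 0.412, edgeR adjusted p = 0.284) and 0.60 with Mycn-gRNA3 (SE 0.404, edgeR adjusted p = 0.282), the high values being those of replicates 3 and 4. Eomes, needed for definitive endoderm and for mesoderm to leave the streak, was at 4.92, 4.17, 7.68 and 11.4 CPM in NT, 4.09, 5.48, 8.44 and 8.87 CPM with Mycn-gRNA2, and 4.04, 5.54, 7.46 and 6.83 CPM with Mycn-gRNA3. The Eomes ranges lay over each other, with log2 differences of -0.06 (SE 0.312, edgeR adjusted p = 0.924) and -0.24 (SE 0.31, edgeR adjusted p = 0.599). Mixl1, a homeobox gene of the streak, had 19, 11, 23 and 12 reads in NT, 28, 16, 24 and 18 with Mycn-gRNA2, and 21, 25, 24 and 22 with Mycn-gRNA3. Its log2 differences were 0.45 (SE 0.251, edgeR adjusted p = 0.25) and 0.22 (SE 0.249, edgeR adjusted p = 0.541). T, Eomes and Mixl1 thus did not pass in the comparisons in which Kdr, Snai1 and Wnt3 did. Whether the changes of these genes differ from each other was not tested.

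Scaling to the ERCC reads shifted all genes upward in the guide libraries and with them these genes. On that scale, 4 of the 9 were called higher and 1 lower with Mycn-gRNA2, and 5 higher and 0 lower with Mycn-gRNA3. This stands beside 26.3% of all genes called higher and 0.517% lower with Mycn-gRNA2, and 60.7% higher and 0.504% lower with Mycn-gRNA3. The genes added were Mixl1 with both guides (log2 0.76, edgeR adjusted p = 0.047, and 0.71, edgeR adjusted p = 0.0331) and T with Mycn-gRNA3 (log2 1.08, edgeR adjusted p = 0.0319). Kdr rose by 3.23 and 3.55, Snai1 by 1.86 and 1.97 and Wnt3 by 1.96 and 2.14 on the log2 scale per ERCC read. These 3 exceed the median shift of all genes, 0.31 and 0.48, by over 1 log2 unit with each guide, whereas Mixl1 with Mycn-gRNA3 exceeds it by far less. Evx1 kept its call with Mycn-gRNA2 (log2 -1.63, edgeR adjusted p = 0.0315).

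**Figure D2:**
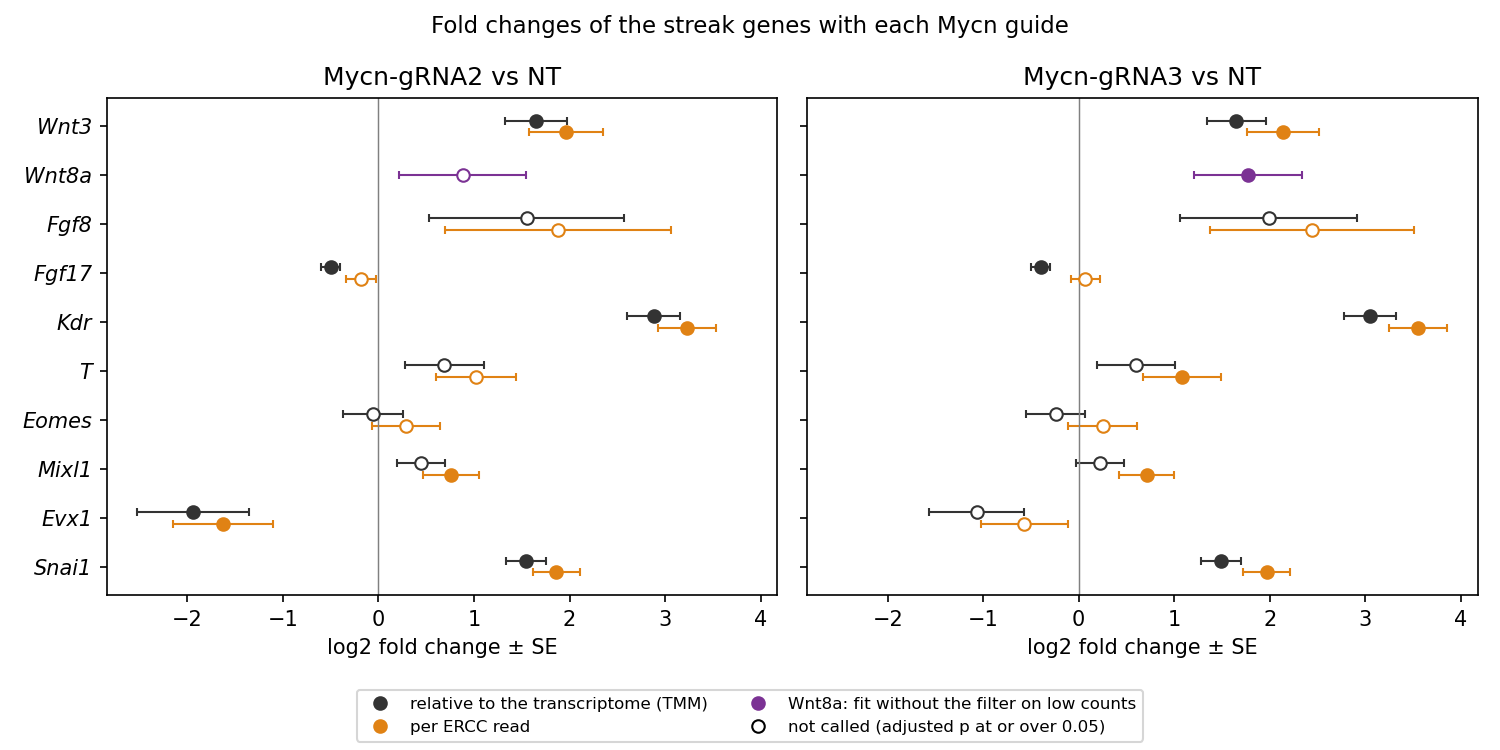
Log2 fold change against NT (horizontal axis, bars are SE) of each gene (vertical axis) with Mycn-gRNA2 (left) and Mycn-gRNA3 (right), relative to the transcriptome (dark) and per ERCC read (orange), with filled points for an adjusted p under 0.05. Wnt8a is shown from the fit without the filter on low counts (purple). Kdr, Snai1 and Wnt3 lie to the right of 0 on both scales, and Fgf17 moves from a called fall of 0.50 and 0.40 to values near 0 per ERCC read.

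The 2 Mycn guides were compared with each other to ask whether the streak genes depend on which guide was used. None of the 9 genes differed, and 0% of all 14497 genes passed edgeR's test, although 1274 had an unadjusted p under 0.05 and DESeq2 called 1 gene. The log2 difference, Mycn-gRNA3 minus Mycn-gRNA2, was 0.17 for Kdr (SE 0.208), 0.01 for Wnt3 (SE 0.254), -0.05 for Snai1 (SE 0.187) and 0.09 for Fgf17 (SE 0.0985). It was 0.87 for Evx1 (SE 0.641, edgeR adjusted p = 0.614), so the call with one guide and not the other is not shown to be a difference between guides. Fgf8 had 0.44 (SE 0.737), with errors too wide to place it.

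Several of these genes also differed by replicate number. Replicates 3 and 4 lay above replicates 1 and 2 in all 3 groups, with no overlap, for T and Eomes, a pattern chosen after the values were seen. Over all genes tested, 3.78% showed it in that direction and 1.9% in the reverse direction, as Evx1 did. Eomes in NT had a mean of 4.55 CPM in replicates 1 and 2 and 9.54 CPM in replicates 3 and 4. For T the mean rose between these pairs from 0.608 to 0.899 CPM in NT, from 0.757 to 1.63 CPM in the Mycn-gRNA2 group and from 0.594 to 1.68 CPM in the Mycn-gRNA3 group. Summed Fgf8 reads in replicates 1 and 2 against 3 and 4 were 4 and 5 in NT, 1 and 26 with Mycn-gRNA2, and 7 and 39 with Mycn-gRNA3. The labels do not say what separates the replicates. Some marker sums moved with them. That of primitive endoderm markers, of which 1 of 11 (Sparc, at 182 ± 20.3 CPM in NT, SD, n = 4) separated the replicates in all groups, was 305 to 329 CPM in NT replicates 1 and 2 and 381 to 392 CPM in 3 and 4, 362 to 379 and 450 to 451 CPM with Mycn-gRNA2, and 381 to 382 and 425 to 460 CPM with Mycn-gRNA3. The neural sum (1 of 6 markers, Nes, separating) was 210 to 220 and 231 to 257 CPM in NT, 163 to 192 and 251 to 286 CPM with Mycn-gRNA2, and 193 to 206 and 242 to 260 CPM with Mycn-gRNA3. The sum of blood and endothelial genes was 130 to 133 and 140 to 149, 144 to 154 and 171 to 174, and 141 to 142 and 157 to 165 CPM in the same order. Of the 17 tested in that list, 1 separated the replicates in all groups (Nrp2, at 44.2 ± 10.3 CPM in NT, SD, n = 4). Sparc, Nes and Nrp2 were named after their values were seen, and their part in the result was not tested. Other lists held more genes that were higher in replicates 3 and 4 in all groups. These were 3 of 11 epithelial and mesenchymal genes, 2 of 6 trophoblast markers and 2 of 13 FGF receptors and feedback genes.

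Each guide was therefore also compared with NT within the replicates, with 2 libraries per group. Fgf8 and T were followed here because their high values had been seen in replicates 3 and 4. Their p-values in those same libraries are thus a description only. With replicates 3 and 4 alone, Fgf8 rose by 2.26 (log2) with Mycn-gRNA2 (SE 0.565, edgeR adjusted p = 0.00398) and by 2.57 with Mycn-gRNA3 (SE 0.524, edgeR adjusted p = 0.000542). T rose by 0.86 (SE 0.285, edgeR adjusted p = 0.025) and by 0.89 (SE 0.276, edgeR adjusted p = 0.0135). In these libraries 17.8% of all genes were called higher and 15.5% lower with Mycn-gRNA2, and 21.5% higher and 19.3% lower with Mycn-gRNA3. In replicates 1 and 2 the log2 difference of Fgf8 was -1.64 with Mycn-gRNA2 (SE 1.88, edgeR adjusted p = 0.74) and 0.54 with Mycn-gRNA3 (SE 1.26, edgeR adjusted p = 0.883). For T in those replicates the differences were 0.32 (SE 0.334, edgeR adjusted p = 0.736) and -0.03 (SE 0.332, edgeR adjusted p = 0.979). There, 0.228% of all genes passed in either direction with Mycn-gRNA2 and 1.52% with Mycn-gRNA3. Among the streak genes only Kdr with Mycn-gRNA3 did (log2 3.40, SE 0.42, edgeR adjusted p = 0.0169), although Kdr with Mycn-gRNA2 (log2 2.81, edgeR adjusted p = 0.0645), Wnt3 with Mycn-gRNA3 (1.70) and Snai1 with both guides (1.44 and 1.17) kept changes of similar size. Whether the guide effect on T or Fgf8 differs between the replicates was not tested.

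Genes that work with the streak factors were then described from lists of the same pathways. Here and in the marker lists further on, some genes passed the filter only through the guide libraries, where they were higher. Among them were Sp8, Foxc1, Foxa2, Shh, Etv2, Col3a1 and Olig2. The counts of risers among tested genes are therefore a description only. Of 14 WNT target genes tested, 6 rose and 0 fell with Mycn-gRNA2, and 6 rose and 1 fell with Mycn-gRNA3, with a median log2 change of 0.33 and 0.35. Over all genes, 10.1% were called higher and 7.05% lower with Mycn-gRNA2, and 14.8% higher and 12.2% lower with Mycn-gRNA3. Those shares stand beside the count of every list below that is relative to the transcriptome. Lef1, a nuclear partner of beta-catenin, went from 1.1 ± 0.329 CPM in NT to 4.92 ± 1.94 and 4.95 ± 2.47 CPM with the guides (SD, n = 4 each), a rise of 2.15 and 2.18 on the log2 scale (edgeR adjusted p = 0.00453 and 0.00256). Sp5, a direct target of WNT signalling, rose by 0.87 and 1.31 (edgeR adjusted p = 0.00893 and 0.000394). The WNT inhibitors Nkd2 and Apcdd1, themselves WNT targets, rose by 0.63 and 0.60 and by 0.52 and 0.65 on the same scale. Named after their values were seen, the others called were Sp8 (1.86 and 1.94), Nkd1 (0.62 and 0.61) and, with Mycn-gRNA3, Tcf7l2, which fell by 0.39 relative to the transcriptome and was at 0.10 per ERCC read.

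Few of the other signals of the gastrula were called. Of 14 tested, 1 rose and 2 fell with Mycn-gRNA2, and 2 rose and 1 fell with Mycn-gRNA3, with medians of -0.18 and -0.06, which is near the shares over all genes. Wnt5a, a non-canonical WNT of the posterior embryo, rose by 3.16 with Mycn-gRNA2 (SE 0.245, edgeR adjusted p = 3.49e-06) and by 3.12 with Mycn-gRNA3 (SE 0.243, edgeR adjusted p = 3.46e-06). The NT level of 0.41 ± 0.147 CPM became 3.69 ± 0.805 and 3.62 ± 0.543 CPM (SD, n = 4 each). Fgf4, the main FGF of pluripotent cells, fell by 0.46 and 0.41 on the log2 scale, about as far as Fgf17. As for Fgf17, that fall was not called per ERCC read (log2 -0.17 and 0.07). Bmp4, which induces posterior streak genes in the epiblast, fell with Mycn-gRNA2 by 0.50 (edgeR adjusted p = 0.00909; log2 -0.29, adjusted p = 0.0735 with Mycn-gRNA3), and this call too was lost per ERCC read (log2 -0.16, edgeR adjusted p = 0.438). Foxh1, the DNA-binding partner of NODAL signalling, rose with Mycn-gRNA3 by 0.61 (edgeR adjusted p = 0.0393; 0.22, adjusted p = 0.521 with Mycn-gRNA2).

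Few FGF receptors and feedback genes were called relative to the transcriptome, with 1 of 13 higher and 0 lower with Mycn-gRNA2, and 2 higher and 1 lower with Mycn-gRNA3, near or below the shares over all genes. Per ERCC read, 2 and 10 of the 13 were called higher. Fgfr2, a receptor for FGF4, rose by 1.29 and 1.32 on the log2 scale (edgeR adjusted p = 3.23e-05 and 1.66e-05). With Mycn-gRNA3, the feedback gene Il17rd rose by 0.25 and Fgfr4 fell by 0.80 (edgeR adjusted p = 0.0159 and 0.0134), the latter not called per ERCC read (log2 -0.32, edgeR adjusted p = 0.24).

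Among later mesoderm genes only 8 of 17 had enough reads to test, and 2 rose and 1 fell with Mycn-gRNA2, while 3 rose and 1 fell with Mycn-gRNA3. The Notch ligand Dll1, made by cells leaving the streak, rose by 1.41 and 1.63 (edgeR adjusted p = 0.000614 and 0.00012). Foxc1, of paraxial mesoderm, rose by 2.75 and 2.55 from 21 NT reads in all, Meox1, of somites, rose by 1.48 with Mycn-gRNA3 (edgeR adjusted p = 0.00754), and Tbx20, of heart mesoderm, fell by 0.52 and 0.69. Per ERCC read Tbx20 was at -0.19 with both guides and not called (edgeR adjusted p = 0.476 and 0.418). In the list of definitive endoderm and anterior streak genes, 6 of 10 were tested. Gsc, Cer1, Lhx1 and Noto were not, with at most 15 reads in any group. With each guide 2 rose, and both had passed the filter only through the guide libraries. These were Foxa2, a pioneer factor of endoderm, by 4.71 and 5.28 on the log2 scale (6 reads in NT, 166 and 302 with the guides), and Shh, a midline signal, from 0.064 ± 0.0557 CPM in NT to 0.679 ± 0.256 and 0.574 ± 0.196 CPM (SD, n = 4 each; edgeR adjusted p = 0.000932 and 0.00135).

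Of 11 genes of the epithelial to mesenchymal transition, the step that SNAI1 drives, 3 rose and 0 fell with Mycn-gRNA2, and 3 rose and 1 fell with Mycn-gRNA3. Cdh1, the epithelial cadherin that SNAI1 is known to repress, rose by 0.36 and 0.34 on the log2 scale (edgeR adjusted p = 0.00147 and 0.00133) in the libraries in which Snai1 rose. The tight junction gene Cldn6 rose by 0.97 and 1.24, and Cdh2, the cadherin of mesenchymal and neural cells, by 1.47 and 1.12. Cdh2 was also higher in replicates 3 and 4 than in 1 and 2 in all groups. Its Mycn-gRNA2 libraries, from 15.4 CPM, overlapped those of NT, which reached 16.2 CPM. The matrix gene Fn1 fell by 0.39 with Mycn-gRNA3 (edgeR adjusted p = 0.00849), and its fall was not called per ERCC read (log2 0.09, edgeR adjusted p = 0.623).

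Of 17 blood and endothelial genes tested, which follow Kdr in development, 4 rose and 1 fell with Mycn-gRNA2, and 4 rose and 0 fell with Mycn-gRNA3. Most were not called, but the share called higher lay above that over all genes, 10.1% with Mycn-gRNA2 and 14.8% with Mycn-gRNA3. Etv2, a driver of Kdr-positive mesoderm toward blood and endothelium, rose by 2.63 and 2.87 (edgeR adjusted p = 5.6e-05 and 1.39e-05), from 22 reads in NT to 136 and 202. Sox18, an endothelial factor, rose by 2.49 and 2.69 from 0.9 ± 0.0555 CPM in NT to 5.03 ± 1.36 and 5.82 ± 0.913 CPM. The VEGF receptor Flt1 rose by 0.88 and 0.79, and the VEGF co-receptor Nrp1 by 1.03 and 0.84. The gene that fell with Mycn-gRNA2, named after its value was seen, was the endothelial receptor gene Tie1 (by 0.82, edgeR adjusted p = 0.0485), which was not called per ERCC read.

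Scaled per ERCC read, none of the 7 lists held a gene called lower with either guide. Called higher with Mycn-gRNA2 and Mycn-gRNA3 were 8 and 12 of 14 WNT targets, 1 and 4 of 14 gastrula signals, 3 and 5 of 8 early mesoderm genes, 4 and 5 of 6 endoderm and anterior streak genes, 5 and 5 of 11 epithelial and mesenchymal genes, and 6 and 12 of 17 blood and endothelial genes. On that scale 26.3% and 60.7% of all genes were called higher.

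**Figure D3:**
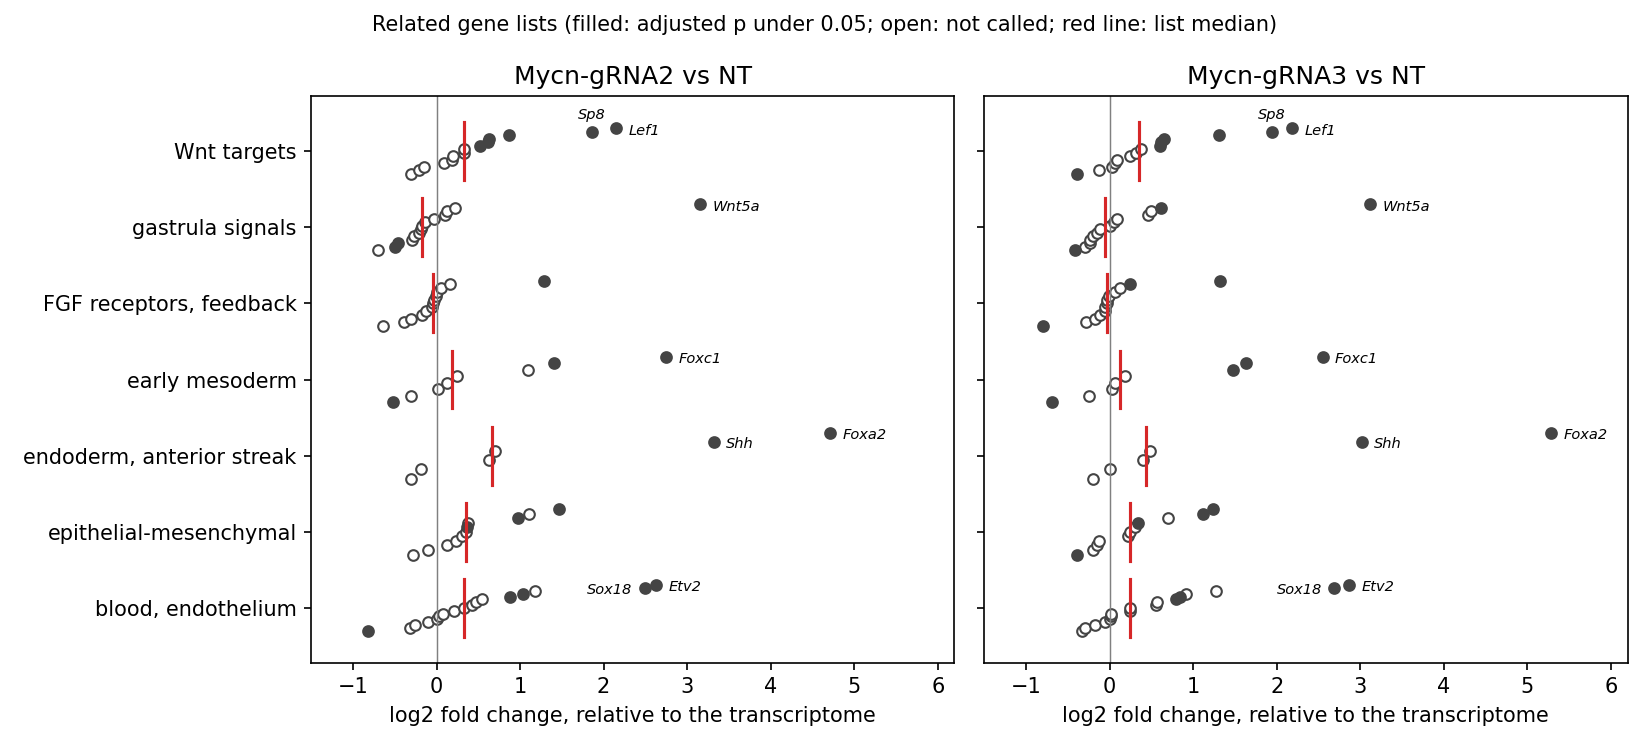
Log2 fold change against NT relative to the transcriptome (horizontal axis) of each tested gene of 7 related lists (vertical axis), with Mycn-gRNA2 (left) and Mycn-gRNA3 (right); filled points have an adjusted p under 0.05 and the red line is the list median. Most genes lie near 0, with a few far to the right, among them Foxa2 at 4.71 and 5.28 and Wnt5a at 3.16 and 3.12.

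Markers of other cell types moved with the guides too. The counts here and in the next paragraph stand beside 10.1% of all genes called higher and 7.05% lower with Mycn-gRNA2. With Mycn-gRNA3 these shares were 14.8% and 12.2%. Of 11 primitive endoderm markers, 6 rose and 1 fell with Mycn-gRNA2, and 7 rose and 1 fell with Mycn-gRNA3, with medians of 1.24 and 1.03, and the summed level was 305 to 392 CPM in NT, 362 to 451 CPM in the Mycn-gRNA2 and 381 to 460 CPM in the libraries with Mycn-gRNA3. Gata6, its early factor, rose by 1.63 and 1.43. Col4a1 rose by 1.36 and 1.49, Cubn by 2.68 and 2.45 and Amn by 1.41 and 1.61. Named after their values were seen, Sox7 fell by 0.58 and 0.83 relative to the transcriptome but was not called per ERCC read, and Sox17, also a gene of definitive endoderm, rose by 1.51 with Mycn-gRNA3 (edgeR adjusted p = 0.0484). Of 6 neural markers, 3 rose and 1 fell with each guide: Olig2 went from 5 reads in NT to 925 and 1432, Pax6 rose by 1.06 and 0.83 and Sox1 fell by 0.67 and 0.86, of which the second alone was called per ERCC read (log2 -0.39, edgeR adjusted p = 0.0399). The third riser was Neurod1 with Mycn-gRNA2, by 0.50 (named after its value was seen), and Tubb3 with Mycn-gRNA3, by 0.62. The summed neural level overlapped, at 210 to 257, 163 to 286 and 193 to 260 CPM in the NT, Mycn-gRNA2 and Mycn-gRNA3 groups.

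Fibroblast markers were low, at a summed 2.34 to 3.1 CPM in NT, 4.96 to 5.81 CPM in the Mycn-gRNA2 and 4 to 6.15 CPM in the libraries with Mycn-gRNA3. Of 4 tested, 3 rose with each guide, Col1a1 by 1.83 and 1.53, Thy1 by 1.01 and 1.21, and Col3a1 from 1 read in NT to 56 and 59. Of 6 trophoblast markers 2 rose, Krt8 by 0.48 and 0.64 and Krt18 by 0.92 and 0.95, and the summed level was 34.5 to 47.9 CPM in NT, 43.9 to 52.8 CPM in the Mycn-gRNA2 and 45.4 to 51.3 CPM in the libraries with Mycn-gRNA3. Of 8 pluripotency markers 0 rose, while 4 fell with Mycn-gRNA2 and 3 with Mycn-gRNA3. Nanog fell by 0.57 and 0.64, Tfcp2l1 by 0.42 and 0.54 and Klf4 by 0.35 and 0.37, and Sox2 fell with Mycn-gRNA2 by 0.27. The summed pluripotency level was 4690 to 5130 CPM in NT, 3740 to 4330 CPM in the Mycn-gRNA2 and 3890 to 4460 CPM in the libraries with Mycn-gRNA3. None of these falls was called per ERCC read, where 0 of the 8 were called higher for Mycn-gRNA2 and 4 for Mycn-gRNA3. The part of these other markers in the changes of the streak genes was not tested.

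The genes whose levels ran most like each streak gene over the 12 libraries were taken from 12838 genes with a mean of at least 1 CPM. The points share groups and libraries, so Pearson's r is a description. Kdr ran most like Stard8 (r = 0.991) and the Y-linked Ddx3y (r = 0.985), both higher in the guide libraries. Wnt3 ran most like Foxa2 and Lypd6 (r = 0.955 for both), and Snai1 most like Atp1b3 and Cdh10 (r = 0.983 for both). Fgf17 ran most like Dmtn (r = 0.978), its neighbour on chromosome 14, where Dmtn spans positions 70602184 to 70636048 and Fgf17 70636205 to 70642268 of mm10, and then Slc7a6os (r = 0.960). Dmtn fell as Fgf17 did, by 0.48 and 0.42 on the log2 scale (edgeR adjusted p = 0.00135 and 0.00212). Like Fgf17, it was not called per ERCC read (log2 -0.16 and 0.06).

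The other genes had other partners. T ran most like Gnao1 and Gbp2 (r = 0.947 for both), Fgf8 like Crabp2 (r = 0.920) and Shisa3 (r = 0.916), Eomes like Smtn (r = 0.945) and Myo1c (r = 0.941), and Evx1 like Tln2 (r = 0.952) and Slc52a3 (r = 0.939). Among the genes most like Mixl1 was Matn3 (r = 0.852). Relative to the transcriptome, none of these partners of T, Fgf8, Eomes, Evx1 and Mixl1 was called with either guide. Per ERCC read, Matn3 was called higher with both guides (edgeR adjusted p = 0.0221 and 0.0282). With Mycn-gRNA3, Gbp2, Crabp2 and Tln2 were called higher on that scale (edgeR adjusted p = 0.048, 0.046 and 0.0269), as were 60.7% of all genes.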

How the data were processed

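PolyA RNA of 12 libraries was analysed from the deposited table of raw read counts per gene. Per the submitters' processing notes, the authors used Trim Galore 0.4.0, featureCounts of Subread 1.5.0, edgeR 3.32.1 and build mm10. Which aligner, annotation and strand setting they used is not stated there or in the labels. The authors also deposited log2 values for 12042 genes. Checked against the counts, each is log2(count + 0.5) shifted by 1 constant for its library. Only Snai1, Fgf17 and Eomes are among them, so they served an alternative test.

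Groups and replicate numbers came from the sample titles. Tests on the counts used edgeR 4.0.16 in R 4.3.3 (robust quasi-likelihood F test, TMM over endogenous genes, filterByExpr, all 12 libraries with a term per group, 9 residual degrees of freedom). The procedure was tested on simulated data with the same spread for every gene. Changes were placed only in genes with more reads than Wnt3, Evx1 and Fgf8, so that test does not cover such low counts. CPM are TMM-scaled, and RPKM use the exon bases per gene that the authors deposited with the counts. Per ERCC read, library sizes were the ERCC reads. The labels give 200000 cells for every sample. Since ERCC RNAs were added after extraction, departures from that cell number or differences in RNA yield would enter those levels. Counts of replicates differed by more than sampling noise (chi-square per degree of freedom at least 8.68), so none was taken for a copy. Limits and counts cover counting error only, as reads carry no molecular identifiers.

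The Mycn-gRNA2 and Mycn-gRNA3 libraries of the same number deviated together (r = 0.417, 0.348, 0.621 and 0.209 for numbers 1 to 4), as read from these data. For different numbers r ran from -0.626 to 0.453, the highest for Mycn-gRNA3 replicate 3 with Mycn-gRNA2 replicate 4. Pairing by number was not tested against the split of replicates 1 and 2 from 3 and 4. The replicate block changed no call between the guides. Against NT, not every same-numbered pair was over 0.1, so the libraries were taken to share only a number.

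Alternatives were ERCC and RLE scaling, DESeq2 1.42.0, limma 3.58.1 on the deposited log2 values, no filter, only the groups compared, the replicate block, replicates 1 and 2 or 3 and 4 only, and leaving out each library. The text names all 10 genes, Mycn, up to 4 called genes of each list by lowest adjusted p, and the 2 genes most like each tested gene in log2 CPM (prior count 2), of which 1 is not reported here. The genes and lists were chosen with earlier results of these data known.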

Additional observations from a re-analysis of the deposited data

Results flagged for a closer look

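Among the 30 sets of 4 libraries (10 genes in 3 groups), 2 held a library far from the other 3, where chance alone gives about 1 in 20. Evx1 in NT replicate 1 was 1.94 CPM, with a gap to the nearest library of 0.85 of the range of its group. Fgf17 in replicate 1 of Mycn-gRNA2 was 36.8 CPM, with a gap of 0.917 of the range. Without NT replicate 1, the log2 difference of Evx1 with Mycn-gRNA2 was -1.48 (edgeR adjusted p = 0.118). Leaving out any library compared, the log2 difference of Fgf17 with Mycn-gRNA2 lay between -0.54 and -0.4, with an edgeR adjusted p of at most 0.014.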

How the results depend on the processing

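Of 441 fold changes of the streak genes recomputed under alternatives, 409 kept their side of the threshold, 17 lost the call, 13 gained it and 2 called ones turned sign. Of the 409, 375 kept their sign and 34 that were not called did not: 22 between the guides and 12 against NT (Eomes in 10, up to 0.29 and 0.33 with Mycn-gRNA2 and Mycn-gRNA3, Fgf8 with Mycn-gRNA2 at -1.64 and T with Mycn-gRNA3 at -0.03, both with replicates 1 and 2 only). The called ones that turned sign were both Fgf17 with Mycn-gRNA3: 0.07 per ERCC read and 0.09 on the deposited log2 values (limma), and the scale differs by construction. Genes called with Mycn-gRNA2 numbered 0 with replicates 1 and 2 only and 1 of 3 on the deposited log2 values. With Mycn-gRNA3 they numbered 1 with replicates 1 and 2 only, 8 with replicates 3 and 4 only, and 1 of 3 on the deposited log2 values. These fits hold fewer libraries or fewer genes. RLE scaling and DESeq2 gave the same counts as the reported fit, 5, 4 and 0. Leaving out 1 library gave 4 to 5 calls with Mycn-gRNA2, 4 to 6 with Mycn-gRNA3 and 0 to 0 between the guides. With replicates 3 and 4 only, Evx1 with Mycn-gRNA3 was -1.38 (edgeR adjusted p = 0.0138) and Eomes -0.41 (edgeR adjusted p = 0.0377).

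With the replicate block, 5 genes were called for Mycn-gRNA2 and 6 for Mycn-gRNA3, the latter adding Evx1 (-1.06, edgeR adjusted p = 0.0408) and Fgf8 (1.96, edgeR adjusted p = 0.0363), and 0 between the guides. Calls over all 14497 genes rose in that fit too. They were 1594 higher and 1214 lower for Mycn-gRNA2, and 2362 higher and 2053 lower for Mycn-gRNA3. The same-numbered libraries correlated at -0.00528, 0.339, 0.352 and 0.00934 for Mycn-gRNA2 and NT, and at 0.0997, 0.228, 0.103 and 0.289 for Mycn-gRNA3 and NT.

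Over all genes, the calls higher and lower for Mycn-gRNA2 were 1462 and 1022 as reported, 32 and 1 with replicates 1 and 2 only, 2587 and 2240 with replicates 3 and 4 only, 3817 and 75 per ERCC read, 2726 and 62 on the deposited log2 values, and 616 lower with the 2 groups alone. Without 1 library they ran from 1023 to 2213 and from 593 (without Mycn-gRNA2 replicate 3) to 1887 (without replicate 1). Lower calls were 633 without NT replicate 3 and 661 without NT replicate 4. With Mycn-gRNA3 they were 2151 and 1774 as reported, 194 and 26, 3123 and 2803, 8794 and 73, and 8201 and 55 under the same alternatives, 3252 and 2858 with the 2 groups alone, and 1143 lower without Mycn-gRNA3 replicate 3. Between the guides 0 became 1 per ERCC read, by DESeq2 and on the deposited log2 values, and 4 and 6 with replicates 3 and 4 only. Counts of 0 to 24 reads limit Wnt8a, Fgf8, Wnt3 and Evx1 in the guide libraries to large differences.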
